A study of Mus musculus with 12 samples.

Results

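The interleukin-12 (IL-12) family is built from 5 subunit genes, Il12a, Il12b, Il23a, Il27 and Ebi3. They were chosen by gene identity, as the rows of both count tables whose Ensembl identifier carries one of these symbols in the GRCm38 annotation, and all 5 were found among 55487 genes. The study had 2 RNA-seq experiments. The first used bone marrow-derived macrophages (BMMs), grown from leg bone marrow of C57BL/6 mice with macrophage colony-stimulating factor, after ovariectomy (OVX, 3 libraries) or a sham operation (sham, 3 libraries). The second used cells labeled as mesenchymal stem cells (MSCs) from C57BL/6 mice, grown alone (MSC), with RAW264.7 cells (MSC+RAW-TW) or with RAW264.7 cells stimulated by lipopolysaccharide (MSC+RAW-LPS-TW), with 2 libraries in each group. The labels give an age of 8 weeks for all mice. RAW264.7 is an established mouse macrophage line, lipopolysaccharide (LPS) is the cell wall component of bacteria that signals through toll-like receptor 4, and TW stands for transwell, an insert whose membrane keeps the cells apart. No group carried a genetic change. The study's captions speak of independent experiments in general, but the sources used here do not tie each library to an animal or culture, so p-values measure the spread between libraries, which may be technical.

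Each cytokine of this family pairs an alpha subunit, which has the fold of a helical cytokine, with a beta subunit that resembles a soluble cytokine receptor. IL-12 is the p35 chain (Il12a) with the p40 chain (Il12b), IL-23 is p19 (Il23a) with p40, IL-27 is p28 (Il27) with EBI3 (Ebi3), and IL-35 has been described as p35 with EBI3. Activated macrophages and dendritic cells are the best known sources of IL-12, IL-23 and IL-27, and transcription of the subunit genes is the main step at which their output is set. IL-12 drives type 1 T cells and interferon-gamma, IL-23 sustains interleukin-17-producing T cells, and IL-27 both promotes and restrains T cell responses. In bone, IL-12 and IL-27 are known to curb osteoclast formation in culture.

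The chains differ in length and sequence in the annotation. The longest p35 translation had 236 residues, p19 had 196, p28 had 234, p40 had 335 and EBI3 had 228. In alignments that left end gaps free, p35 and p19 aligned over 179 residues and were identical at 21.9% of the positions of the shorter chain. For p40 and EBI3 the values were 219 residues and 24.1%. The other 8 pairs of chains aligned over only 8 to 41 residues, including both pairs of p28 with the other alpha chains (14 and 25). Their identity, at most 4.59% of the shorter chain, therefore does not measure full-length likeness. The genes lie apart in the genome (GRCm38). Il12a (ENSMUSG00000027776) is at chr3:68690644-68698547 on the plus strand, Il12b (ENSMUSG00000004296) at chr11:44400063-44414033 on the plus strand, Il23a (ENSMUSG00000025383) at chr10:128296139-128298752 on the minus strand, Il27 (ENSMUSG00000044701) at chr7:126589010-126594941 on the minus strand, and Ebi3 (ENSMUSG00000003206) at chr17:55952640-55957022 on the plus strand. Il27 overlaps the end of Apobr on the opposite strand, and Ebi3 overlaps the antisense gene Gm16712. Whether counting used the strand is not given in the sources used here, so reads of such partners may not be told apart, and the partners' levels stand beside the results.

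Promoter sequence is shown for the subunits with the largest differences between groups (Il12a and Il12b) and for the subunit with the highest level in every group (Ebi3). The promoter set used held no window for Il23a or Il27, so their promoters were not searched. Each line holds the 250 bases before a start site, 5′ to 3′ on the gene's strand, from RefSeq on GRCm38.p6. Capitals mark matches on either strand to GGGANTT, a half-site of the NF-kappaB family of inflammatory transcription factors. The windows are chr3:68690394-68690643 for Il12a, chr11:44399813-44400062 for Il12b and chr17:55952373-55952622 for Ebi3.
Il12a: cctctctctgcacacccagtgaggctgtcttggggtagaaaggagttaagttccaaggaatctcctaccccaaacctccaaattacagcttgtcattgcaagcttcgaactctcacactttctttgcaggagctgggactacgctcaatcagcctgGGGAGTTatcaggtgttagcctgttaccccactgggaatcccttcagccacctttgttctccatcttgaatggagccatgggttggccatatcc
Il12b: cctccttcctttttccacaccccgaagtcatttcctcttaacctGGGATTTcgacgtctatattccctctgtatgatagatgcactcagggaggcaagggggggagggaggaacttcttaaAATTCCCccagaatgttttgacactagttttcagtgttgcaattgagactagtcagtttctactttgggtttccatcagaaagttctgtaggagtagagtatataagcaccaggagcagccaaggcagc
Ebi3: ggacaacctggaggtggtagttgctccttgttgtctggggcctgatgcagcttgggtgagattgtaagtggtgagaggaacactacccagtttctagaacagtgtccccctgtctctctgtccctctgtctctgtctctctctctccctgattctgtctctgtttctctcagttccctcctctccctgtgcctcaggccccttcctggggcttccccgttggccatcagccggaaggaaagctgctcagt
The Il12a window held 1 match, starting 94 bases before the start site. The Il12b window held 2, starting 206 and 129 bases before it, the second on the minus strand. The Ebi3 window held 0, as did the window of a second Il12a start at chr3:68691174-68691423. Among 32851 promoter windows of this length, 14.4% held at least 1 match. The windows were also searched on both strands for GAAANNGAA (an interferon response element core), TGANTCA (the AP-1 site) and TTGCNNAA (a C/EBP site), and none of the 4 held any. These letters occur in 7.13%, 6.75% and 9.56% of all windows. A match describes the letters and does not show that a factor binds.

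Levels are given in CPM, the counts of a gene scaled to a common library total with TMM factors within each experiment. The call rule asked for a 2-fold change or more, and for an adjusted p of 0.05 or less in edgeR's quasi-likelihood test with Benjamini-Hochberg adjustment over all genes tested. Total counts ran from 17012923 to 45367105 per library. Between sham replicates 2 and 3 the chi-square of counts was 2.48 times its sampling value at low counts and 3.09 times at high counts. Between both MSC+RAW-TW libraries it was 3.11 and 3.34 times. From low to high counts this excess rose less than 2-fold in these pairs, and at least 5.89-fold in every other pair within a group. Each of these pairs was therefore treated as near-identical and counted as 1 sample. Sham therefore had n = 2 and MSC+RAW-TW n = 1, whose spread was assumed to equal that of the other MSC groups.

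The labeled cell types were compared with marker genes. BMM libraries were high in macrophage markers, with 19 of 20 reaching 1 CPM and a summed level between 47756 and 52297 CPM in OVX and between 65928 and 70604 in sham. They also held stromal markers, with a sum of 7642 to 8279 CPM in OVX and 7482 to 8038 in sham, and neutrophil markers, with a sum of 1127 to 1240 and 772 to 929 CPM. The libraries labeled MSC were high in macrophage markers as well. All 20 reached 1 CPM, and their sum was 32838 to 33216 CPM in MSC, 42638 to 43071 in MSC+RAW-TW and 16789 to 17627 in MSC+RAW-LPS-TW. Most of each sum was Lyz2, the lysozyme gene (21597 to 21728, 26346 to 26636 and 9155 to 9982 CPM). Against MSC, 10 of the 20 were called lower in MSC+RAW-LPS-TW, where 5.09% of all genes were called lower. The 2 called higher were Adgre1 (1.42, SE 0.16) and Marco (1.91, SE 0.17), beside 5.85% of all genes. The 12 stromal markers summed to 2876 to 3043, 2667 to 2691 and 4038 to 4105 CPM in the same groups, below their sums in BMMs. Of these 12, 11 reached 1 CPM in MSC, among them the collagen gene Col1a2 (880 and 927 CPM), and Thy1, a stromal surface marker, did not (0.449 and 0.294 CPM). Thy1 was at 52.6 to 69.2 CPM in BMMs. Ptprc, the gene of the leukocyte antigen CD45, was at 167 and 171 CPM in MSC. The levels below are therefore those of the libraries as labeled, and the cell type that carried them was not tested. Dendritic cells, another known source of these cytokines, had 5 of 12 markers at 1 CPM in each MSC group, with a sum of 73.3 to 79.2 CPM in MSC, 116 in MSC+RAW-TW and 74.9 to 76.7 in MSC+RAW-LPS-TW. Most of each sum was Itgax (54.2 to 88.0 CPM). The others of the 5 were H2-Ab1 (6.84 to 15.4 CPM), Cd83 (2.42 to 9.55), Zbtb46 (2.07 to 3.81) and Batf3 (1.18 to 2.15). Flt3, Xcr1, Clec9a, Ccr7 and Dpp4 stayed below 1 CPM there, and Cd209a and Siglech were at 0 counts. In the MSC groups the 10 neutrophil markers summed to 56.7 to 60.2, 62.3 to 65.5 and 470 to 628 CPM in the same order, most of it S100a8 (341 and 515 CPM) in MSC+RAW-LPS-TW. The 8 B and plasma cell markers summed to 118 to 119, 255 to 257 and 306 to 359 CPM, nearly all of it Sdc1 (115 to 117, 252 to 255 and 305 to 357 CPM), and the 10 T and NK cell markers stayed below 5 CPM. The part of these differences in the subunit results was not tested.

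Il12a, the alpha chain of IL-12, stood at 32.4 and 37.0 CPM in the MSC+RAW-LPS-TW libraries (1080 and 1164 counts). In MSC it had 0 and 2 counts, and in MSC+RAW-TW 0 counts in both libraries, which allows up to 0.0397 CPM over the group (3 counts). The groups did not overlap. Over summed counts the level in MSC+RAW-LPS-TW was 1438 times that in MSC, with an exact 95% counting interval from 398 to 11885, and at least 873-fold higher than in MSC+RAW-TW. The ratio to MSC rests on the 2 counts of MSC replicate 2, without which MSC is at 0 counts. The adjusted p was 1.35e-10 against MSC and 2.61e-09 against MSC+RAW-TW (edgeR). Such intervals and bounds cover counting error only. Among genes of 1 to 20 counts, even counts made up 60.0% to 71.4% in each library, so the counts are not single independent molecules.

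Il12b, the p40 chain that IL-12 and IL-23 share, was at 3.75 and 4.04 CPM in MSC+RAW-LPS-TW (125 and 127 counts). All 4 other MSC libraries held 0 counts. The level was at least 108-fold higher than in MSC, where 0 counts allow up to 0.0361 CPM, and at least 98.0-fold higher than in MSC+RAW-TW. The adjusted p was 1.80e-06 and 1.50e-05 (edgeR).

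Il27, the alpha chain of IL-27, was at 7.38 and 6.36 CPM in MSC+RAW-LPS-TW. It was at 1.06 and 0.735 CPM in MSC, and at 0.684 and 0.721 CPM in MSC+RAW-TW. The MSC+RAW-LPS-TW libraries were above all 4 others. The log2 fold change was 2.92 (SE 0.36, adjusted p = 2.04e-05, edgeR) against MSC and 3.26 (SE 0.48, adjusted p = 7.88e-05) against MSC+RAW-TW. Its overlapping neighbor Apobr, a lipoprotein receptor gene, did not follow this order. Apobr was at 61.1 and 78.2 CPM in MSC+RAW-LPS-TW, 67.9 and 56.9 in MSC, and 122 and 130 in MSC+RAW-TW.

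Ebi3, the beta chain of IL-27, was present in every library. It was at 42.6 and 37.5 CPM in MSC+RAW-LPS-TW, 29.3 and 23.0 in MSC, and 27.7 and 29.5 in MSC+RAW-TW. The MSC+RAW-LPS-TW libraries were again the highest, but the difference was small. The log2 fold change against MSC was 0.61 (SE 0.17, adjusted p = 0.0179, edgeR), below the fold limit, and against MSC+RAW-TW it was 0.46 (SE 0.21, adjusted p = 0.0952). The antisense gene Gm16712 was far below Ebi3, at 2.07 and 2.19 CPM in MSC+RAW-LPS-TW, 1.78 and 2.50 in MSC, and 0.244 and 0.346 in MSC+RAW-TW.

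Il23a, the alpha chain of IL-23, had another pattern. It was at 0.163 and 0.147 CPM in MSC (8 and 5 counts), 0.733 and 1.13 CPM in MSC+RAW-TW (30 and 39 counts), and 0.660 and 0.890 CPM in MSC+RAW-LPS-TW (22 and 28 counts). Both groups with RAW264.7 cells were above MSC, and they overlapped each other. MSC+RAW-TW exceeded MSC by a log2 fold change of 2.56 (SE 0.91, adjusted p = 0.0473, edgeR), and that call was lost without either MSC library, without 1 of the MSC+RAW-TW libraries and with DESeq2 (adjusted p = 0.0979), and held in 8 of 14 alternative analyses. MSC+RAW-LPS-TW exceeded MSC by 2.29 (SE 0.83, adjusted p = 0.0631), past the fold limit but not the limit on p, while counting all libraries separately gave an adjusted p of 0.0286. Between the 2 groups with RAW264.7 cells the difference was -0.26 (SE 0.88, adjusted p = 0.838), with a 95% interval from -2.14 to 1.62.

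**Figure D1:**
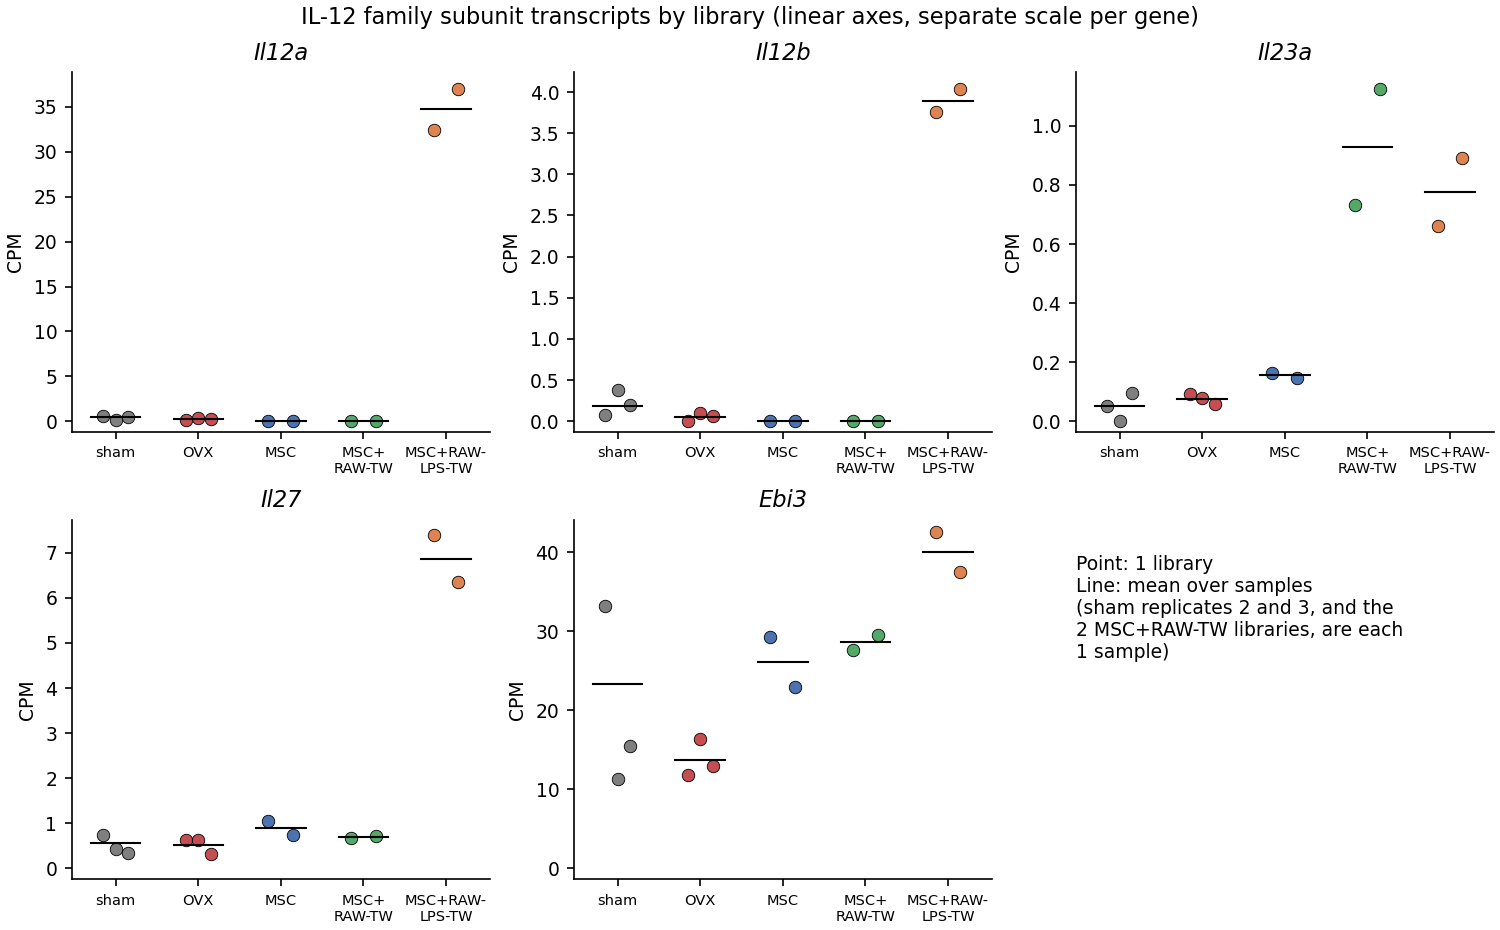
CPM of each subunit gene (vertical axes, linear, 1 scale per gene) in every library of the 5 groups, with points for libraries and lines for group means over samples. Il12a, Il12b and Il27 are highest in MSC+RAW-LPS-TW, with Il12a at 32.4 and 37.0 CPM there against at most 0.602 CPM elsewhere, while Il23a lies above MSC in the libraries of both groups with RAW264.7 cells, a difference called in MSC+RAW-TW and not in MSC+RAW-LPS-TW.

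In all, 3 of the 5 subunits were called higher in MSC+RAW-LPS-TW when compared with MSC, against 5.85% of the 20499 genes tested that were called higher and 10.9% called in either direction. The same 3, Il12a, Il12b and Il27, were called higher than in MSC+RAW-TW, where 15.4% of all genes were called higher and 27.4% in either direction. Both comparisons share the MSC+RAW-LPS-TW libraries. Genes low in all MSC libraries were filtered out before testing, and Il12a and Il12b passed only through their MSC+RAW-LPS-TW counts. Their calls therefore describe that group and are not separate support. In MSC+RAW-TW against MSC, 1 of 5 was called higher (Il23a), against 6.80% of all genes and 16.4% in either direction. There, Ebi3 differed by 0.15 (SE 0.21, adjusted p = 0.610) and Il27 by -0.34 (SE 0.45, adjusted p = 0.589), and Il12a and Il12b were at or under 3 counts in every library. Il12a was called in 15 of 15 alternative analyses of each MSC+RAW-LPS-TW comparison, as were Il12b and Il27.

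In BMMs, OVX changed none of the subunits by the call rule. Of the 5, 3 had enough counts to be tested and 0 were called, with 8.46% of 16768 genes called in either direction. At an unadjusted p under 0.05 the count was also 0, and DESeq2 called 0 of them. Ebi3 was at 11.8, 16.4 and 12.9 CPM in OVX and at 33.3, 11.3 and 15.5 CPM in sham replicates 1 to 3. Sham replicate 1 was the highest and the rest of the groups overlapped. The log2 fold change was -0.78 (SE 0.35, adjusted p = 0.175, edgeR), with a 95% interval from -1.57 to 0.02. Without sham replicate 1 it was -0.0018 (SE 0.28, adjusted p = 0.998). Without a filter on low counts the adjusted p was 0.0206, at a fold below the limit. Gm16712 lay between 0.340 and 1.25 CPM in these libraries.

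Il12a was at 0.183, 0.314 and 0.237 CPM in OVX and at 0.602, 0.127 and 0.484 CPM in sham, from 2 to 23 counts a library. The groups overlapped, and the log2 fold change was -0.92 (SE 0.64, adjusted p = 0.370), with an interval from -2.38 to 0.54. Il27 was at 0.639, 0.628 and 0.325 CPM in OVX and at 0.733, 0.443 and 0.339 CPM in sham. Its log2 fold change was -0.08 (SE 0.58, adjusted p = 0.945), with an interval from -1.40 to 1.24, and it turned sign in several alternative analyses. Il12b, with 0 to 6 counts a library, and Il23a, with 0 to 3, were too low to be tested. Over summed counts Il12b had 6 counts in OVX and 13 in sham, and Il23a had 8 and 4. The interval of Il27 allows a change of 2-fold in either direction, so it cannot tell an undetected difference from none.

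**Figure D2:**
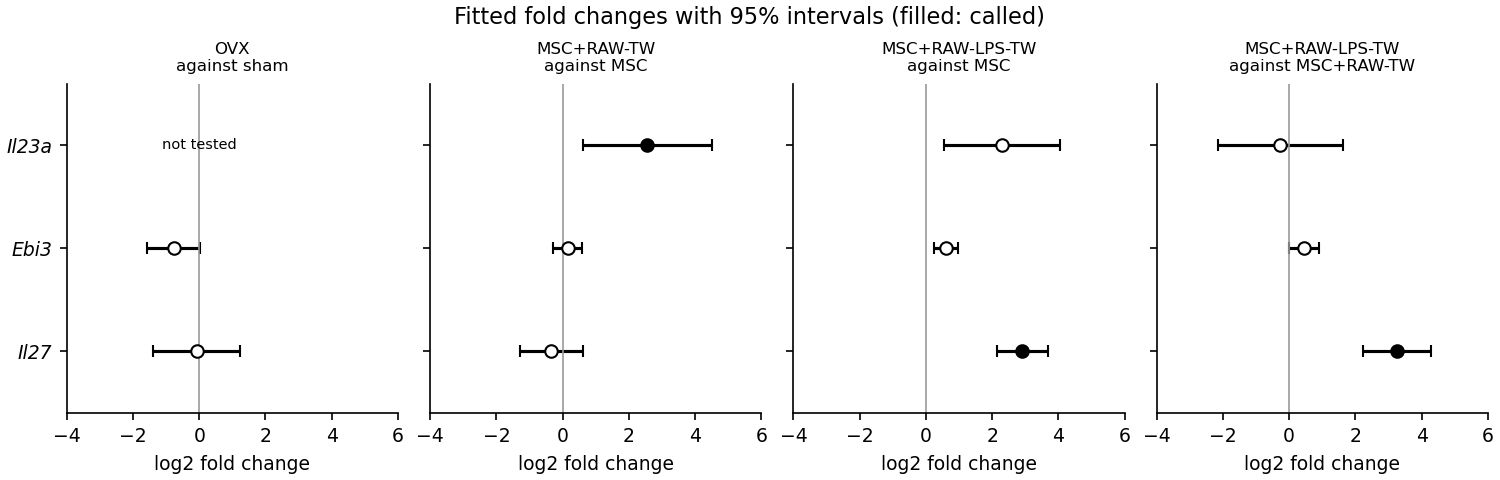
Fitted log2 fold changes (horizontal axes) with 95% intervals for Il23a, Ebi3 and Il27 in the 4 comparisons, with filled points for called genes. Il27 is called higher in MSC+RAW-LPS-TW against both other MSC groups (2.92 and 3.26), and Il23a in MSC+RAW-TW against MSC (2.56). Il12a and Il12b are not drawn, since a fitted fold against groups at or near 0 counts depends on the prior count, and the value of Il12a in OVX against sham (-0.92) is given in the text.

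Levels of different genes were compared per kilobase of exon, since longer transcripts collect more reads. On this scale Ebi3 was the highest subunit in each of the 12 libraries and made up 94.3% of the family's summed mean level in OVX, 95.6% in sham, 95.9% in MSC and 95.7% in MSC+RAW-TW. In MSC+RAW-LPS-TW its share was 54.1%, with Il12a at 31.8%, Il27 at 10.5%, Il12b at 3.09% and Il23a at 0.538%. The family sum was 64.2 CPM per kilobase in MSC+RAW-LPS-TW, against 23.6 in MSC and 25.9 in MSC+RAW-TW.

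In MSC+RAW-LPS-TW the order was Ebi3 (34.7 ± 3.13 CPM per kilobase, SD, n = 2), Il12a (20.4 ± 1.91), Il27 (6.73 ± 0.710), Il12b (1.98 ± 0.103) and Il23a (0.345 ± 0.0723). No neighbors in this order overlapped. In OVX the order was Ebi3 (11.9 ± 2.09, n = 3), Il27 (0.520 ± 0.174), Il12a (0.144 ± 0.0387), Il23a (0.0340 ± 0.00721) and Il12b (0.0277 ± 0.0267), where Il23a and Il12b did not differ beyond their spread. Sham had Ebi3 (20.2 ± 12.2, n = 2), Il27 (0.550 ± 0.237), Il12a (0.267 ± 0.123), Il12b (0.0928 ± 0.0748) and Il23a (0.0224 ± 0.00124), with overlapping libraries for Il27 and Il12a, for Il12a and Il12b, and for Il12b and Il23a. In MSC, Ebi3 (22.6 ± 3.86, n = 2) was followed by Il27 (0.879 ± 0.226) and Il23a (0.0690 ± 0.00515). MSC+RAW-TW, with 1 sample, had Ebi3 at 24.8, Il27 at 0.688 and Il23a at 0.414.

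**Figure D3:**
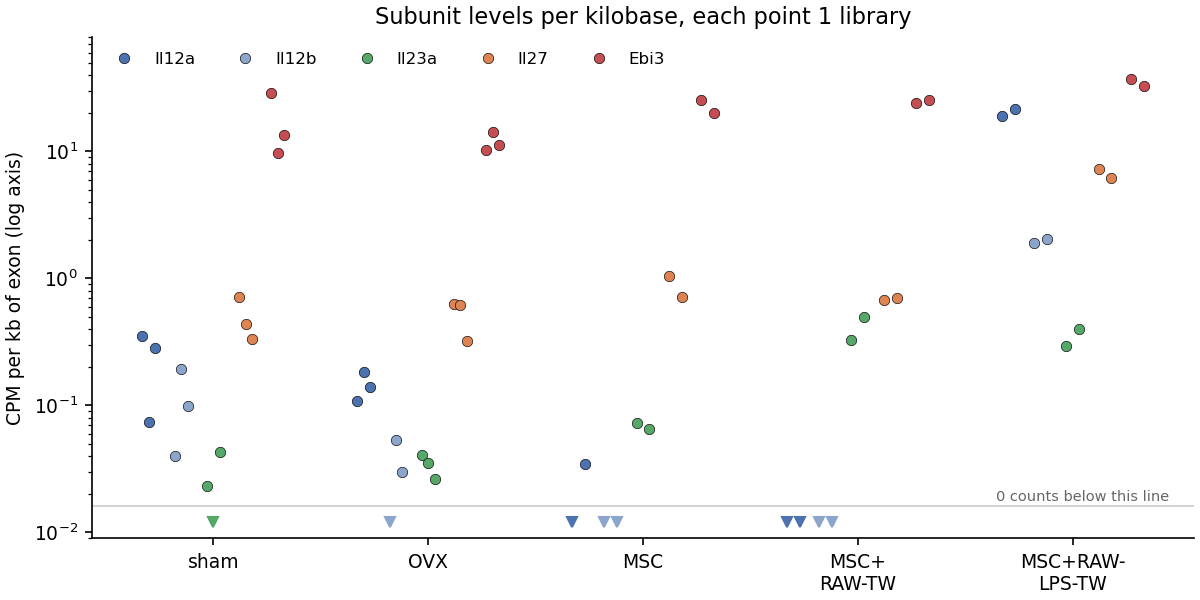
CPM per kilobase of exon (log axis) of the 5 subunits in each library, with triangles below the line for 0 counts. Ebi3 is the highest point in every library, and Il12a reaches 19.1 and 21.8 CPM per kilobase only in MSC+RAW-LPS-TW.

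The partner chains of 1 cytokine were not at equal levels. In MSC+RAW-LPS-TW, Il12a exceeded Il12b 9.99 and 10.6 times per kilobase in the 2 libraries, so the alpha chain of IL-12 was the more abundant transcript. Il12b exceeded Il23a, its IL-23 partner, 6.49 and 5.18 times. In MSC+RAW-TW, Il23a was detected with 0 counts of Il12b. For IL-27, Ebi3 exceeded Il27 5.10 and 5.22 times in MSC+RAW-LPS-TW, 24.4 and 27.7 times in MSC, 35.8 and 36.2 times in MSC+RAW-TW, and 16.4 to 40.6 times in BMMs. The MSC+RAW-LPS-TW libraries therefore had the smallest excess of Ebi3. For the pair assigned to IL-35, Ebi3 exceeded Il12a 1.94 and 1.49 times in MSC+RAW-LPS-TW and 47.3 to 95.6 times in the 5 BMM libraries with more than 3 counts of Il12a. These ratios describe transcripts and not assembled cytokines.

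The receptor genes were read in the same libraries. IL-12 binds IL12RB1 with IL12RB2, IL-23 binds IL12RB1 with IL23R, and IL-27 binds IL27RA with gp130 (Il6st). Il23r was at 6.48 and 5.09 CPM in MSC+RAW-LPS-TW, at 0.163 and 0.176 CPM in MSC (8 and 6 counts), and at 0 counts in both MSC+RAW-TW and all 6 BMM libraries. Against MSC it was called higher in MSC+RAW-LPS-TW, with a log2 fold change of 5.07 (SE 0.48, adjusted p = 9.97e-07, edgeR), and was at least 146-fold higher than in MSC+RAW-TW (adjusted p = 1.14e-06). It was called lower in MSC+RAW-TW than in MSC. In the MSC fit Il23r passed the filter on low counts only through its MSC+RAW-LPS-TW counts.

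No other receptor gene was called in the 4 comparisons. Il6st, the signal chain of the interleukin-6 family as well, was at 176 to 256 CPM in all libraries. In MSC+RAW-LPS-TW, Il12rb1 averaged 2.77 ± 0.942 CPM (SD, n = 2), against 1.81 ± 0.273 (n = 2) in MSC, and it was at 1.51 and 0.519 CPM in the MSC+RAW-TW libraries. Its log2 fold change of 1.36 (SE 0.53) between MSC+RAW-LPS-TW and MSC+RAW-TW had an adjusted p of 0.0533. Il27ra did not reach 1.3 CPM in any library, and Il12rb2 did not reach 0.5. Of the 5 receptor genes, only Il23r was called in each MSC comparison. Of all genes, 10.9% were called between MSC+RAW-LPS-TW and MSC, 27.4% between MSC+RAW-LPS-TW and MSC+RAW-TW, and 16.4% between MSC+RAW-TW and MSC. Of the 3 tested in BMMs 0 were called.

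Upstream genes were counted in lists drawn up with earlier results of these data known. Against MSC, the MSC+RAW-LPS-TW libraries had 4 of 13 activators of subunit transcription called higher and 0 lower, where 5.85% of all genes were called higher. The list's median log2 fold change was 0.60, against -0.01 over all genes tested. Rel, an NF-kappaB subunit known for its role at the Il12b and Il23a promoters, rose from 18.7 and 21.4 CPM to 49.2 and 38.5 CPM (log2 fold change 1.13, SE 0.18, adjusted p = 2.33e-04, edgeR), and that call was lost without MSC+RAW-LPS-TW replicate 2 and with library size alone, with values down to 0.90. Nfkb1 rose by 1.68 (SE 0.15), Cebpb by 1.88 (SE 0.18) and Nfkbiz, a nuclear cofactor of NF-kappaB, by 3.35 (SE 0.17). Irf1, Irf3, Irf5, Irf8, Rela, Spi1, Batf3, Jun and Fos were not called.

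Against MSC, 5 of 8 restraints on subunit transcription were called higher and 0 lower in the same libraries, beside the same 5.85% of all genes, with a list median of 3.28. Il10, the cytokine that represses IL-12 production, was at 78.4 and 85.5 CPM against 8.04 and 6.32 (log2 fold change 3.51, SE 0.19, adjusted p = 1.46e-09, edgeR). Socs3 rose by 4.06 (SE 0.16), Tnfaip3 by 3.44 (SE 0.17), Socs1 by 3.40 (SE 0.18) and Nfkbia by 3.16 (SE 0.17). All 4 are inhibitors that cytokine or NF-kappaB signaling induces. The same 5 genes were called higher against MSC+RAW-TW, where 15.4% of all genes were called higher, the list median was 2.53 and that of all genes 0.14.

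Of 10 genes of toll-like receptor 4 sensing, 2 were called, with 10.9% of all genes called in either direction. Ticam2, an adaptor, was called higher than in MSC (1.40, SE 0.17) and Tlr4 itself lower. Tlr4 was at 16.2 and 15.3 CPM in MSC+RAW-LPS-TW and at 31.2 and 39.4 CPM in MSC (log2 fold change -1.16, SE 0.18, adjusted p = 1.53e-04, edgeR), and this call was lost without MSC replicate 2. Against MSC+RAW-TW, 3 of 10 were called higher and 0 lower, where 15.4% of all genes were called higher. These were the TLR4 co-receptor genes Ly96 (1.68, SE 0.45) and Cd14 (1.11, SE 0.28) and Ticam2 (1.46, SE 0.22), while Tlr4 (-0.97, SE 0.21) stayed under the fold limit. The call of Ly96 was lost with GC and length trends removed (0.84) and that of Cd14 without MSC+RAW-LPS-TW replicate 2 (0.61). Jak2, the kinase on the receptor chains IL12RB2 and IL23R, rose by 3.14 (SE 0.16) against MSC and by 3.53 (SE 0.22) against MSC+RAW-TW. Stat4, which IL-12 signaling activates, was at 1.63 and 1.53 CPM in MSC, 0.0489 and 0.0577 in MSC+RAW-TW (2 counts in each library), and 1.35 and 0.986 in MSC+RAW-LPS-TW.

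Against MSC, MSC+RAW-TW had 2 of 13 activators called, with Rel lower (-1.49, SE 0.24, adjusted p = 4.95e-04, edgeR) and Spi1, the myeloid factor PU.1, higher (1.10, SE 0.18). The 2 of 13 are near the 16.4% of all genes called. The call of Rel was lost with GC and length trends removed (-0.83), and that of Spi1 with those trends removed and with library size alone, with values down to 0.47. No restraint and no gene of toll-like receptor 4 sensing was called there. Between MSC+RAW-LPS-TW and MSC+RAW-TW, 3 of 13 activators were higher (Rel, Nfkb1 and Nfkbiz) and 1 was lower (Irf5, -1.48, SE 0.18, and not called with GC and length trends removed), with 27.4% of all genes called and a list median of -0.19.

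In BMMs the calls in these lists were all lower in OVX. They were 2 of 13 activators, 4 of 8 restraints and 1 of 10 genes of toll-like receptor 4 sensing, where 3.08% of all genes were called lower and 8.46% in either direction, with list medians of -0.58, -0.91 and -0.42 against -0.01 over all genes. Batf3, a factor of the IL-12-producing dendritic cell lineage, was at 3.56, 4.39 and 3.40 CPM in OVX and at 20.3, 17.7 and 18.5 CPM in sham (log2 fold change -2.35, SE 0.22, adjusted p = 0.00273, edgeR). Spi1 fell by 1.46 on the log2 scale (SE 0.21). Socs3, Nfkbia, Socs1 and Il10 fell by 1.55, 1.30, 1.22 and 1.20, and Ticam2 by 1.17. Without OVX replicate 2, 0 of the 4 restraints passed, nor did Ticam2, and the calls over all genes fell from 1419 to 309. The folds of Nfkbia and Socs3 stayed past the limit in each of the 16 alternative analyses (with values of -1.04 and -1.09 nearest to 0), and there only the limit on p was missed. With library size alone Il10, Socs1 and Ticam2 failed as well. Socs1, which held in 11 of 16 alternative analyses, also failed without OVX replicate 1 and with GC and length trends removed, with or without the replicate block, while Batf3 and Spi1 passed in 16 of 16 alternative analyses. Of the 20 macrophage markers, 4 were lower and 1 was higher in OVX, and their part in these differences was not tested.

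**Figure D4:**
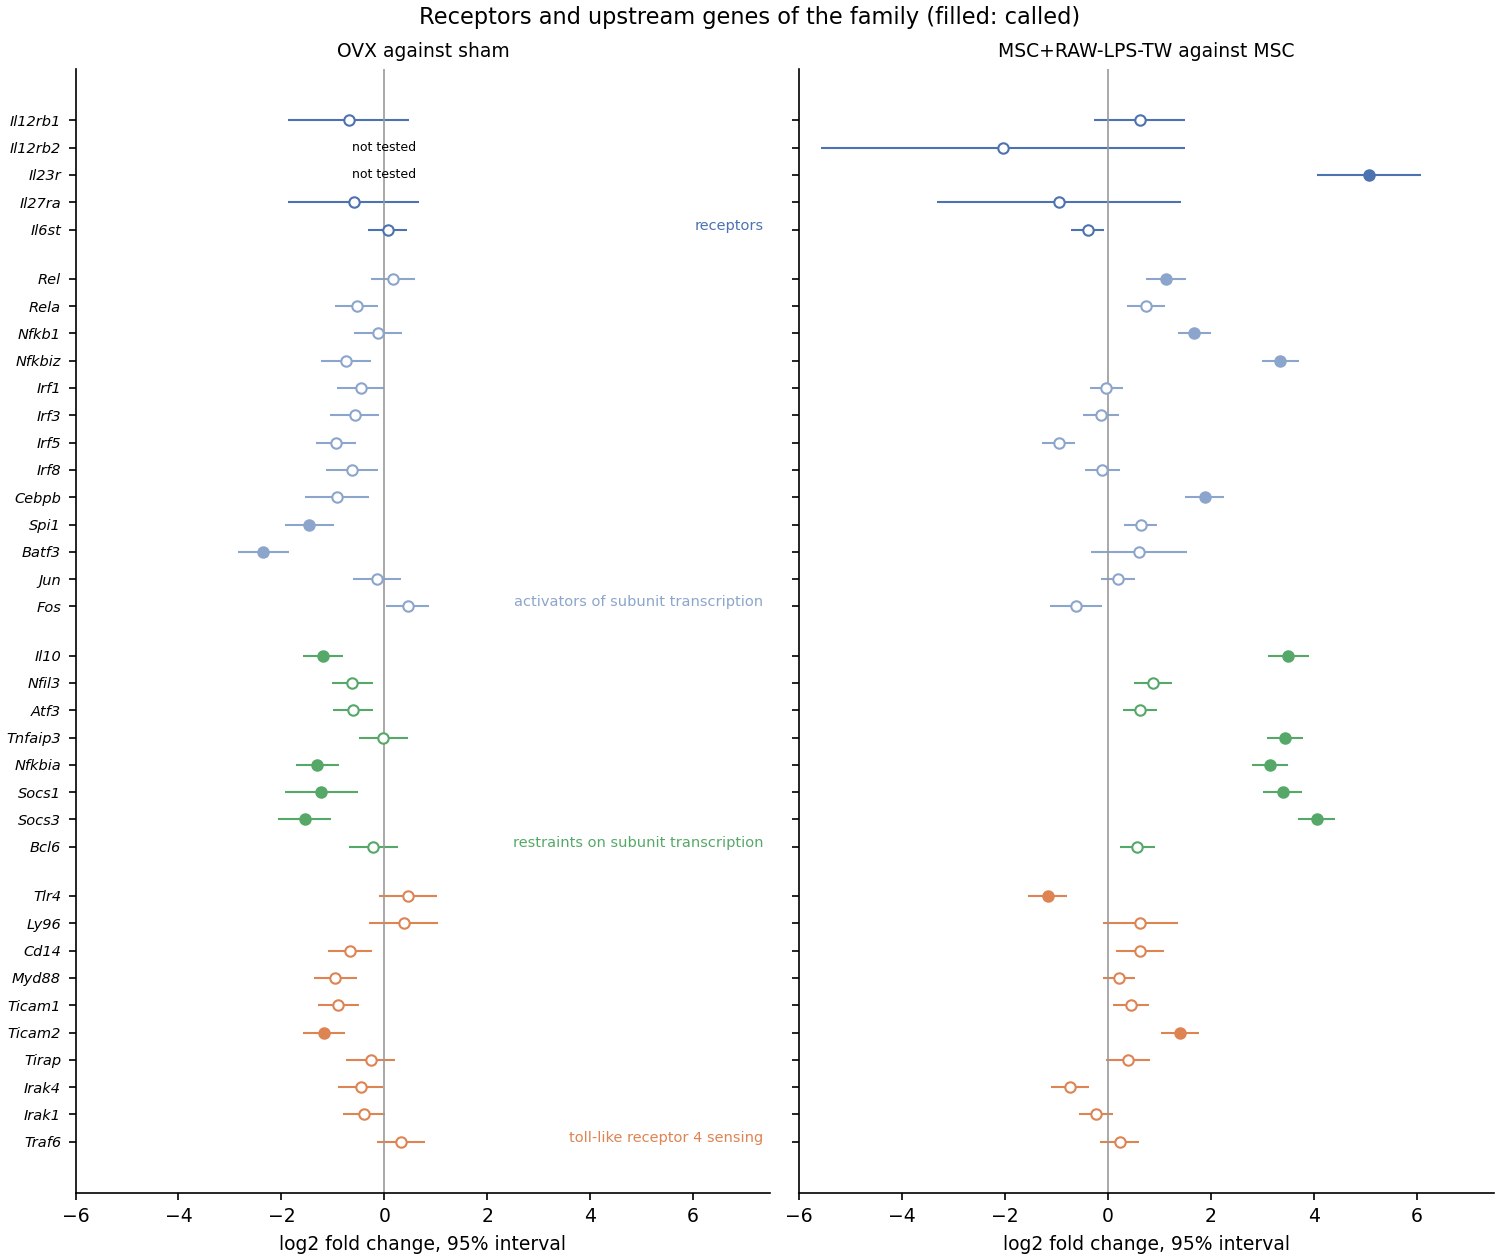
Log2 fold changes (horizontal axes) with 95% intervals for receptor, activator, restraint and toll-like receptor 4 genes in OVX against sham (left) and MSC+RAW-LPS-TW against MSC (right), with filled points for called genes. All called genes lie below 0 on the left, and on the right all but Tlr4 lie above 0.

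The genes with the most similar pattern were taken by Pearson correlation of log2 CPM over 10 samples, among 13665 genes whose mean reached 1 CPM. For Il12a they were Cxcl2, a neutrophil chemokine (r = 0.989), Spata13 (r = 0.988) and Lif, a cytokine of the interleukin-6 family (r = 0.981). For Il27 they were Fnbp1l (r = 0.980), Slc7a2, an arginine transporter (r = 0.979), and Dusp16 (r = 0.976). For Ebi3 they were Mapk7 (r = 0.976), Hmga1 (r = 0.947) and Xaf1 (r = 0.942). The samples share experiments and groups, so these values are descriptions, and those of Il12a and Il27 rest largely on the 2 MSC+RAW-LPS-TW samples. Rank correlation (Spearman) named other genes, sharing 1 of 3 for Il12a (Cxcl2), 0 of 3 for Il27 and 2 of 3 for Ebi3. Il12b and Il23a had means under 1 CPM and were not compared.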

How the data were processed

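RNA-seq was read for 12 libraries of BMMs and cells labeled MSC. According to the methods and the submitters' processing notes, the authors made directional poly(A) libraries, trimmed reads with Trim Galore 0.6.7, mapped them to GRCm38 with HISAT2 2.1.0 and counted them per Ensembl gene with featureCounts 2.0.1. The deposited values are raw counts, not normalized, with exon length beside them. Per the file headers each column is 1 library. The headers number the MSC+RAW-LPS-TW columns 2 and 3, unlike the sample titles, so these columns were tied to their group only. Replicate numbers in that group are those of the headers. GENCODE (GRCm38) named 55227 of 55487 identifiers.

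The tests used edgeR 4.0.16 in R 4.3.3 (TMM, filterByExpr, quasi-likelihood F-test, two-sided), with 1 fit per experiment. Calls needed a log2 difference of 1 or more with an adjusted p of 0.05 or less. Libraries of a group were summed where the ratio of chi-square to its sampling value rose less than 2-fold from low to high counts (genes with at least 20 counts). A group at 0 was given a floor of 3 counts over its summed libraries. Named genes were the 5 members, every receptor gene and, per list, up to 4 called genes of the largest change, and others named are list members chosen after their values were seen. Alternatives were RLE, library size alone, DESeq2 1.42.0, other filters, GC and length trends removed (lowess span 0.3), replicate and library series blocks, and each library left out. The fits were tested on simulated data. The members and lists were chosen with earlier results of these data known. A gene of the signaling list is not reported here.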

Additional observations from a re-analysis of the deposited data

How the results depend on the processing

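Il12a, Il12b and Il27 stayed called higher in MSC+RAW-LPS-TW against both other MSC groups in all 15 alternatives of each comparison, and no subunit was called between OVX and sham in any of 17. With a filter on low counts, Il12a and Il12b were in these fits only through their MSC+RAW-LPS-TW counts. Calls in MSC+RAW-TW against MSC were less stable. The 1 subunit called there, Il23a, gave 0 calls with library size alone, DESeq2, GC and length trends removed and a mean CPM of at least 1, which left Il23a untested, and between 0 and 1 without single libraries. Its call against MSC in MSC+RAW-LPS-TW appeared with all libraries separate, with the library series block and without MSC+RAW-LPS-TW replicate 2. In MSC+RAW-TW against MSC, the log2 fold change of Ebi3 turned to -0.21 with library size alone and -0.28 with GC and length trends removed, and ran from -0.012 to 0.34 without single libraries. The change of Il23a between MSC+RAW-LPS-TW and MSC+RAW-TW ran from -0.54 (without MSC+RAW-TW replicate 1a) to 0.083 (without 1b). The cause was not tested. Library size alone moved the median of all genes by 0.24 in OVX against sham and to -0.49 in MSC+RAW-TW against MSC.

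For OVX against sham, the fold change of Il27 turned positive, at 0.034 with all libraries separate, 0.18 with library size alone, 0.31 with GC and length trends removed and 0.028 with the library series block, and ran from -0.23 to 0.46 without single libraries. With the replicate block it was 0.067, and with the replicate block and GC and length trends removed 0.50, where Ebi3 was at 0.036. Same-numbered OVX and sham libraries correlated at 0.36, -0.01 and 0.31 in their deviations, so the numbers were not taken to pair the samples. The replicate block, which keeps all libraries separate, called 2117 genes, against 1818 with all libraries separate and no block and 1419 with near-identical libraries summed. The replicate numbers could not serve as a block in the MSC fits, because the column headers give both MSC+RAW-TW columns the same number, and the library series was the only block fitted there. Over all genes, no fold limit gave 2193 calls in OVX against sham, 4286 in MSC+RAW-LPS-TW against MSC and 5862 in MSC+RAW-TW against MSC. Removing GC and length trends gave 590 in the first and 2165 in the last. Without single libraries, OVX against sham had 309 (without OVX replicate 2) to 2390 calls (without sham replicate 1). The library series block was chosen after the data were seen. Low counts limit Il12b and Il23a in BMMs.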
